A study of Arabidopsis thaliana with 8 samples.

Results

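The 24-nt siRNA windows on the chromosome arms of *Arabidopsis thaliana* were examined in seedlings with and without functional HOT3, a translation initiation factor (eIF5B1) that takes part in 18S rRNA maturation. A window is a stretch of 100 bp for which small RNAs (sRNAs) of 18 to 26 nt were counted. Members were chosen by their total count and by the share of 24-nt reads, with no regard to genotype. Windows of chromosomes 1 to 5 were kept when they held 80 counts or more over all 8 libraries, when at least 50% of these counts were 24 nt long, and when they lay outside the pericentromere of each chromosome and outside rDNA. The intervals left out were chr1:11500000-17700099, chr2:1100000-7200099, chr3:10300000-17300099, chr4:1500000-6300099 and chr5:9000000-16000099. The rule kept 7561 windows, of 880361 windows on the arms and 1196681 in the whole series, and the same limits kept 8186 windows in the pericentromeres. Their high 24-nt share over the 8 libraries pooled is therefore a description and was not tested.

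Seedlings of 4 genotypes in the Columbia background were sequenced at 18 days of age, with 2 libraries each. The plants were *hot3-2* and *hot3-3*, which each carry a T-DNA insertion in *HOT3*, the *HOT3-EYFP* line, which carries a *HOT3-EYFP* transgene under the *HOT3* promoter and still has the *hot3-2* insertion, and WT. The pair of alleles was set against plants with functional HOT3, meaning *HOT3-EYFP* and WT together. Each mutant is 1 insertion line, and the labels do not say whether the 2 libraries of a genotype came from separate plants, so *p*-values measure the spread between these libraries. The sRNA counts hold no mRNA markers of the seedling tissue, and no member window lay in *HOT3* (chr1:28830902-28836748) or in the 1 kb before it, so the labels could not be checked at the gene itself with these windows.

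In plants, most 24-nt siRNAs belong to RNA-directed DNA methylation (RdDM). RNA polymerase IV makes short transcripts at transposons and repeats, RDR2 makes them double-stranded, DCL3 cuts them to 24 nt, and AGO4 carries the siRNA to transcripts of RNA polymerase V, where DRM2 methylates the DNA. In the pericentromeres this pathway works beside other forms of heterochromatin, whereas on the arms its targets are mostly short elements scattered near genes.

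Total counts ranged from 6793502 to 8210328 per library. Counts in rDNA took 33.7% and 34.0% of all counts in *hot3-2*, 40.5% and 40.8% in *hot3-3*, 52.1% and 52.2% in *HOT3-EYFP*, and 44.0% and 44.3% in WT. Summed levels are therefore given over 2 denominators, all counts and nuclear counts outside rDNA. Libraries of the same genotype were not copies of each other, since their 24-nt counts differed beyond sampling noise (chi-square per degree of freedom of 2.47 to 2.79).

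Sequences of 100 bases are shown for the windows on which the results turn, read from the plus strand of the TAIR10.1 assembly. The first is the arm window with the most 24-nt counts, the next 3 had more 24-nt siRNAs in both *hot3* alleles, and the last 4 had fewer in some or all of the lines that carry an insertion. Capitals mark CG dinucleotides, 1 of the contexts in which plant DNA is methylated. A CG was present in 84.6% of the member windows and in 83.0% of the other arm windows.
chr3:10008600-10008699: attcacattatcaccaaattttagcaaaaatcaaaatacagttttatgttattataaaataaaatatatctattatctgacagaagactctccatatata
chr1:2800600-2800699: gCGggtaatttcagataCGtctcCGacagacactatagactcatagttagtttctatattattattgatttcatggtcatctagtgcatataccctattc
chr2:7677900-7677999: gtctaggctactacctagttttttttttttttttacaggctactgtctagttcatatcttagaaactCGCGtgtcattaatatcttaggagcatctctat
chr5:16716200-16716299: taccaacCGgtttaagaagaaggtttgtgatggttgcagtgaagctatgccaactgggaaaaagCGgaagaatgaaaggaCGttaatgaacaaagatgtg
chr3:8138700-8138799: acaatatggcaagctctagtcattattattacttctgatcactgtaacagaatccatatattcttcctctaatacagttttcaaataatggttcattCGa
chr2:13702500-13702599: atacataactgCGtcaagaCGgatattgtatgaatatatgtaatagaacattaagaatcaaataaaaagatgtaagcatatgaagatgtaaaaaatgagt
chr5:2656100-2656199: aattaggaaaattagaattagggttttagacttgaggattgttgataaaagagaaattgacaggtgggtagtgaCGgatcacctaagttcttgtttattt
chr4:630900-630999: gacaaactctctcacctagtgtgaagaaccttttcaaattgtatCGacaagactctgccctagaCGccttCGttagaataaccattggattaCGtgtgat

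The member windows lay mostly outside gene bodies, and most had no adjacent member. By the annotation at the centre of the window, 2935 were intergenic (38.8% of members and 14.6% of all arm windows), 2736 lay within 1 kb upstream of a gene (36.2% and 16.5%), 1142 lay in a gene body (15.1% and 66.8%) and 748 lay in a pseudogene (9.89% and 2.16%), the class in which this annotation places most transposable element genes. Other transposable elements are hardly annotated in it, so the classes do not show which members lie in one. Of the 5864 runs of adjacent members, 4517 were a single window, and the longest run held 7 windows. A run also ended where a neighbour with reads missed a limit of the rule. In all, 9111 arm windows had 80 counts or more and a 24-nt share under 50%. Members numbered 180 per Mb within 1 Mb of a pericentromere interval, 131 at 1 to 2 Mb and 107 at 2 to 4 Mb. Farther out they numbered 65.3 per Mb at 4 to 8 Mb and 41.0 beyond 8 Mb. The short arms of chromosomes 2 and 4 were the densest, with 229 and 168 windows per Mb, and the other arms held 68.1 to 94.7. These short arms hold only 10900 and 15000 windows of 100 bp. They therefore lie wholly within 2 Mb of the intervals, where the density by distance was highest.

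**Figure D1:**
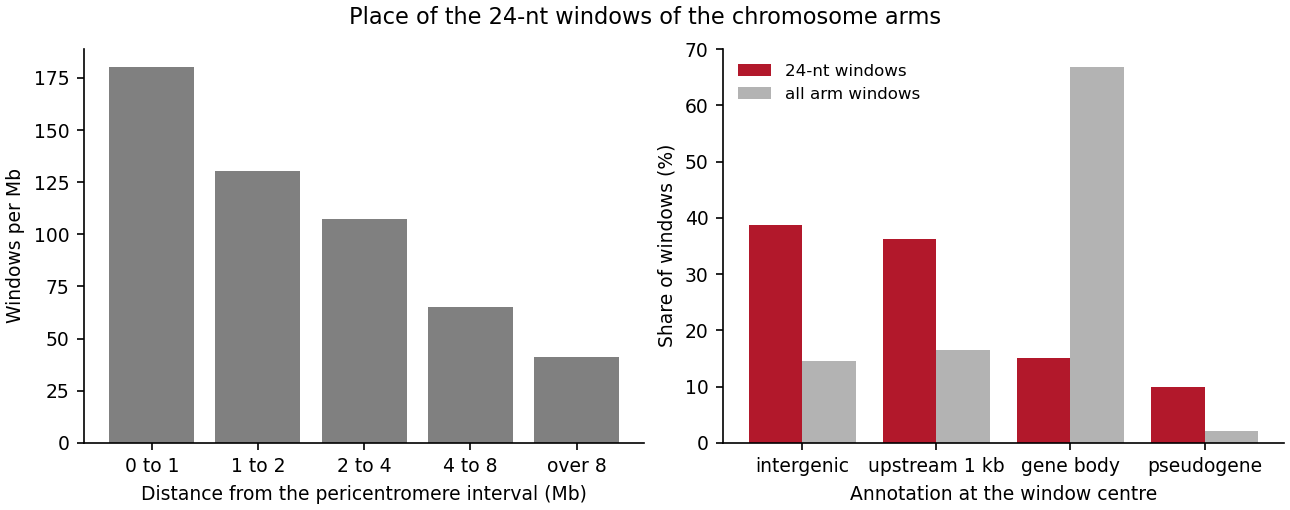
The 24-nt windows per Mb by distance from the pericentromere interval in Mb (left), and share of windows in each annotation class in % (right), with 24-nt windows in red and all arm windows in grey. Density falls with distance, and intergenic, upstream and pseudogene windows take a larger share of the 24-nt windows than of all arm windows.

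The sequence of the members was poor in G and C and often repeated. Median GC content was 32% (quartiles 27% and 38%), against 36% in the other arm windows and 35% in pericentromere members. A median of 81% of the 24-base words that start in a member window occurred once in the genome, and 29.6% of members were unique throughout, against 84.8% of the other arm windows. Pericentromere members were unique throughout in 28.8%. Arm windows with 80 counts or more and a 24-nt share under 50% were so in 35.2%, with a median GC content of 33%. Repeated sequence was thus not particular to the arm members. The counts do not say how reads that match several places were assigned, so a change in a repeated window may belong to another copy.

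Members had a median of 217 counts (quartiles 123 and 486), and 60 of them had exactly 80 counts, whereas 64 arm windows with a 24-nt share of 50% or more had 79. Their median 24-nt share was 57.8% and the highest was 91.4%, with 760 members at 70% or more. Near the other limit, 2530 members had a share of 50% to 55% and 2402 arm windows with enough counts had 45% to 50%. In 7060 members (93.4%) every library held 24-nt counts.

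The 5 members with the most 24-nt counts are given as a description, in normalized 24-nt counts, which are TMM-scaled CPM of the 24-nt reads. The first, chr3:10008600-10008699, lies within 1 kb upstream of AT3G27140, a protein phosphatase 2C family gene, and held 36594 of the 2181241 24-nt counts of all members. Its levels were 4054 and 4241 in *hot3-2*, 3672 and 3863 in *hot3-3*, 3695 and 4025 in *HOT3-EYFP*, and 3790 and 4008 in WT, and the range of the alleles covered that of *HOT3-EYFP* and WT. The windows on either side of it held 5 and 2 counts of 24 nt.

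The next window by counts, chr1:23559200-23559299, covers most of a tRNA-Cys gene, AT1G63510 (chr1:23559187-23559258). In its sequence, capitals mark the tRNA gene, which is on the minus strand.
chr1:23559200-23559299: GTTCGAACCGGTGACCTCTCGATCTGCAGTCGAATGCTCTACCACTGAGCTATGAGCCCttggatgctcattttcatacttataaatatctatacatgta
Its levels were 591 and 534 in *hot3-2*, 1821 and 1816 in *hot3-3*, 1259 and 1494 in *HOT3-EYFP*, and 413 and 349 in WT. The *hot3-3* and *HOT3-EYFP* libraries were all above those of *hot3-2* and WT. Only 3.34% of its counts were 23 nt, a length that took 18.6% at the chromosome 3 window, and its neighbours held 1 and 0 counts of 24 nt. A set of 6 members, summarised after their values were seen, lay over tRNA genes and held 18087 of the members' 24-nt counts. As a share of the members' 24-nt counts in a library, they took 0.447% and 0.403% in *hot3-2*, 1.48% and 1.49% in *hot3-3*, 1.16% and 1.27% in *HOT3-EYFP*, and 0.346% and 0.315% in WT. In these files, without strand or read ends, siRNAs and tRNA fragments cannot be told apart.

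The remaining 3 of the 5 were chr4:10870800-10870899 upstream of *EMB1025* (a pentatricopeptide repeat gene), chr1:27710600-27710699 between genes and chr2:11739900-11739999 upstream of AT2G27460 (a sec23/sec24 transport family gene). At chr1:27710600-27710699, where 86.4% of counts were 24 nt, levels were 670 and 699 in *hot3-2*, 546 and 552 in *hot3-3*, 737 and 736 in *HOT3-EYFP*, and 1050 and 1120 in WT, with both WT libraries above all others. At *EMB1025* levels ranged from 659 to 703 in the alleles and from 748 to 933 in plants with functional HOT3, and at AT2G27460 the ranges of 612 to 794 and 621 to 783 overlapped.

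The main shift in the arm windows was one of read length. The 24-nt share was lower in both *hot3* alleles, at 57.7% and 58.3% in *hot3-2* and 58.3% and 58.6% in *hot3-3*, against 61.3% and 62.0% in *HOT3-EYFP* and 61.9% and 62.3% in WT. No allele library reached the lowest of the other 4, and the transgenic line stood beside WT. The difference was -3.63 percentage points (two-sided exact permutation test of 4 libraries against 4, *p* = 0.0286, the smallest this design can give). An exact test of 2 libraries against 2 cannot go below *p* = 0.333, so single genotypes were not tested on summed values. The permutation treats libraries of the same genotype as independent.

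Shares of the shorter lengths were higher in the alleles. At 22 nt, *hot3-2* had 10.2% and 10.1% of its counts and *hot3-3* 9.83% and 9.68%, against 9.17% and 8.87% in *HOT3-EYFP* and 8.98% and 8.80% in WT. The 21-nt share was 5.58% to 5.77% in the alleles and 4.90% to 5.15% in plants with functional HOT3, and the 23-nt share 18.1% to 18.2% and 17.3% to 17.7%. Shares of 18, 19 and 20 nt were also higher in all 4 allele libraries, by 0.393, 0.376 and 0.480 percentage points. For each of the 7 lengths from 18 to 24 nt the exact permutation test gave *p* = 0.0286, and 0.0367 after Benjamini-Hochberg adjustment over the 9 lengths, while 25 nt (difference 0.00527 percentage points, *p* = 0.886) and 26 nt (0.0210, *p* = 0.400) did not pass.

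**Figure D2:**
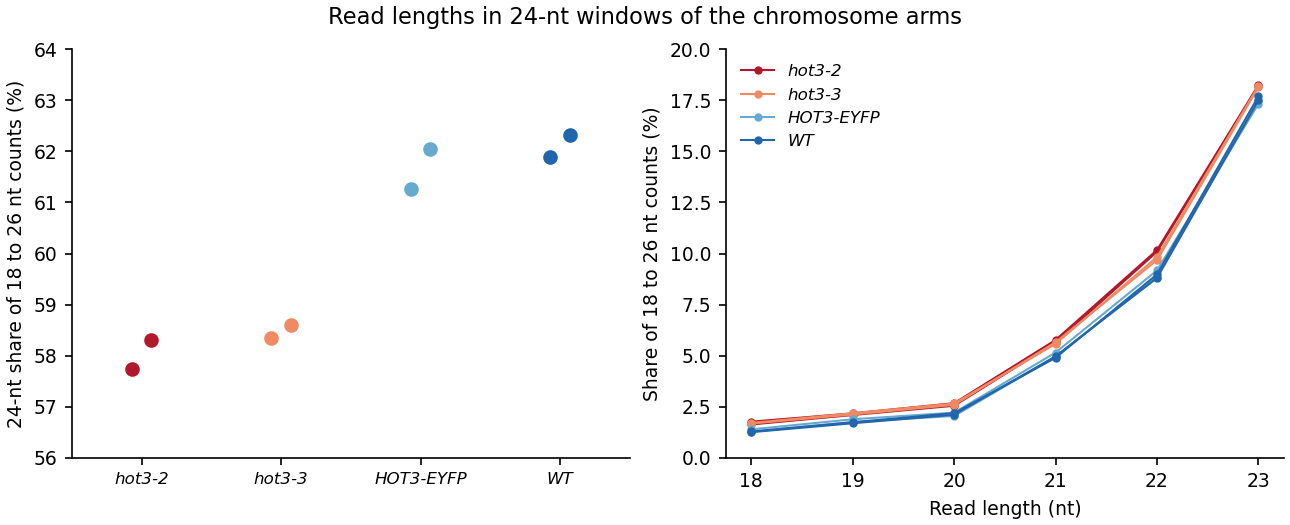
Share of counts that were 24 nt (left, in %, 1 point per library) and shares of 18 to 23 nt (right, in %, 1 line per library) in the arm windows, by genotype. The 4 *hot3* libraries lie between 57.7% and 58.6% on the left, below the 61.3% to 62.3% of *HOT3-EYFP* and WT, and above them at every length on the right.

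The fall in 24-nt share was found on each of the 10 arms, with all 4 allele libraries below the other 4 and differences of -3.16 to -4.22 percentage points. It was also found in each annotation class, with differences of -3.03 in pseudogenes, -3.06 in gene bodies, -3.70 upstream of genes and -3.88 between genes (exact permutation test, *p* = 0.0286 in each). Windows outside this set showed it too. In pericentromere members the share was 57.4% to 58.0% in the alleles and 61.4% to 62.2% in plants with functional HOT3, a difference of -4.10 percentage points, and the arm share minus the pericentromere share was 0.273 to 0.650 points in the alleles against -0.123 to 0.129 in the others (exact permutation test, *p* = 0.0286). Arm windows that were not members also had a lower 24-nt share, 14.7% to 14.9% in the alleles against 16.9% to 17.9% in the others, which was not tested.

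The summed 24-nt level depended on the denominator. In CPM of all counts, the members held 40106 and 40147 in *hot3-2*, 35216 and 34993 in *hot3-3*, 30585 and 30997 in *HOT3-EYFP*, and 42237 and 42307 in WT. The *HOT3-EYFP* libraries were lowest and WT highest, and on the log2 scale the alleles differed from plants with functional HOT3 by 0.06 (exact permutation test, *p* = 0.657).

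In CPM of nuclear counts outside rDNA, the same sums were 78561 and 79458 in *hot3-2*, 77060 and 77139 in *hot3-3*, 93679 and 96362 in *HOT3-EYFP*, and 100404 and 101472 in WT. All 4 allele libraries were then below the other 4, with a log2 difference of -0.33 (exact permutation test, *p* = 0.0286). The rDNA share of each library, given above, enters the first denominator and not the second. By length on the second scale, the log2 difference was 0.14 at 18 nt, -0.06 at 21 nt, -0.09 at 22 nt, -0.18 at 23 nt and -0.23 at 25 nt, of which 18, 23 and 25 nt had groups that did not overlap (exact permutation *p* = 0.0286, 0.0643 after adjustment over 9 lengths).

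The ratio of arm to pericentromere 24-nt counts needs no denominator and separated the genotypes. Arm counts over pericentromere counts gave 1.30 and 1.29 in *hot3-2* and 1.32 and 1.32 in *hot3-3*, against 1.44 and 1.46 in *HOT3-EYFP* and 1.44 and 1.46 in WT. The log2 difference was -0.15 (exact permutation test, *p* = 0.0286). With the 24-nt share of windows set at 70% or more it was -0.091 and no longer passed (exact permutation test, *p* = 0.0571). Arm members held 25.2% to 25.6% of all nuclear 24-nt counts outside rDNA in the alleles and 28.0% to 28.5% in *HOT3-EYFP* and WT (exact permutation test, *p* = 0.0286), while arm windows that were not members held 24.6% to 26.1% in the alleles and 25.03% to 26.4% in the others (*p* = 0.571). The difference in log2 ratio to the pericentromeres was -0.15 within 1 Mb of the intervals, -0.073 at 1 to 2 Mb, -0.16 at 2 to 4 Mb, -0.15 at 4 to 8 Mb and -0.22 beyond 8 Mb.

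**Figure D3:**
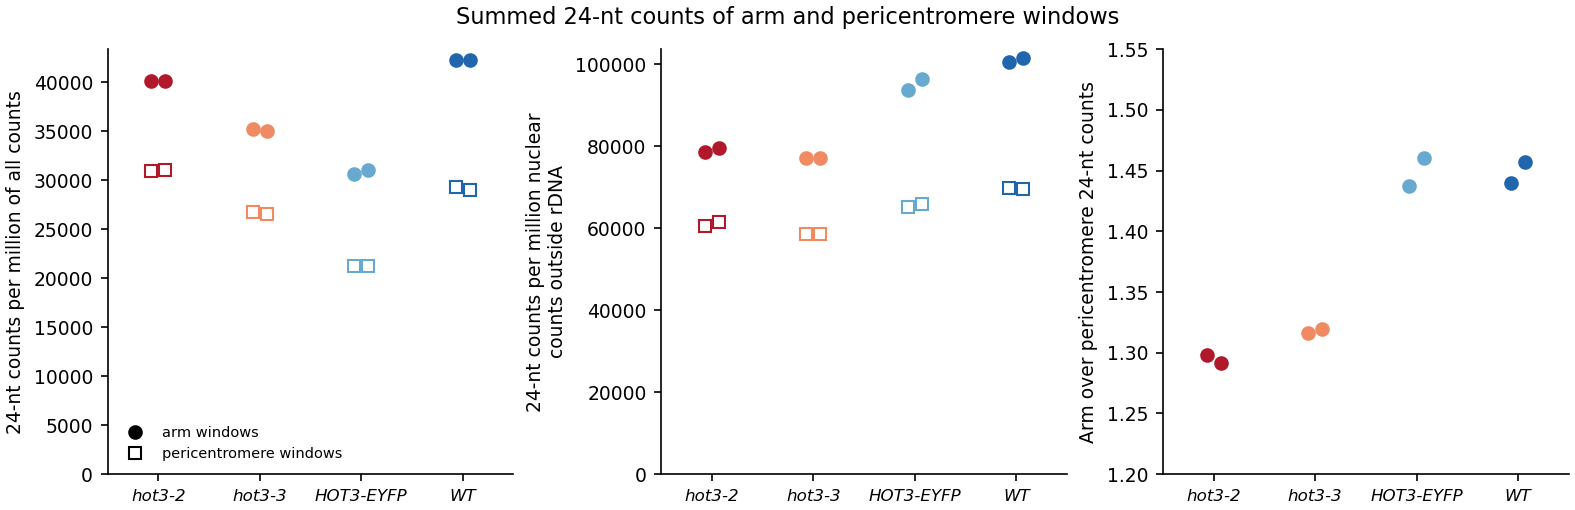
Summed 24-nt counts of arm windows (filled circles) and pericentromere windows (open squares) as CPM of all counts (left) and as CPM of nuclear counts outside rDNA (middle), and the arm to pericentromere ratio (right, axis from 1.2), 1 point per library. The order of *HOT3-EYFP* and the alleles turns round between the first 2 panels, and in the ratio the alleles lie at 1.29 to 1.32, below the 1.44 to 1.46 of *HOT3-EYFP* and WT.

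Among the annotation classes, differences in CPM of all counts did not pass the test in any class (log2 differences of -0.02 in pseudogenes, 0.06 in gene bodies, 0.06 upstream and 0.07 between genes, exact permutation *p* of 0.629 to 0.80). In CPM of nuclear counts all 4 were lower in the alleles (-0.40, -0.33, -0.33 and -0.31, exact permutation *p* = 0.0286 each, also after adjustment over the classes). Relative to the sum of the other classes, pseudogene windows were lower in the alleles, at log2 ratios of -4.13 to -4.10 against -4.05 to -4.02, a difference of -0.077 with an exact permutation *p* of 0.0286, which became 0.114 after adjustment over the 4 classes.

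Single windows were tested with edgeR's quasi-likelihood test on the 24-nt counts of all 26598 windows of the genome with 10 counts or more in at least 2 libraries, 6962 of them members. The other 599 members were too low to be tested. Windows were called at 2-fold or more when *p*, adjusted over all windows tested after Benjamini and Hochberg, was under 0.01. For the *hot3* alleles against functional HOT3, 85 members were called higher and 60 lower, which is 1.22% and 0.862% of the members tested, against a background of 1.24% and 0.996% of all windows. The shares of members called were thus close to the background in both directions. The median log2 fold change was -0.08 over the members and 0.02 over all windows tested.

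The split between directions moved with the scaling. With all counts as library size, 127 of 6962 members tested were called higher and 29 lower, against 465 and 155 of all 26598 windows tested. Medians were 0.08 over members and 0.18 over all windows tested. With nuclear counts outside rDNA, 52 members were called higher and 175 lower, against 224 and 678 of all windows tested, at medians of -0.30 and -0.20. Among members with a 24-nt share of 70% or more the median was 0.05 under TMM scaling, above that of all windows tested. The 85 windows called higher formed 78 loci when windows within 2 kb were joined, and the 60 called lower formed 56.

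**Figure D4:**
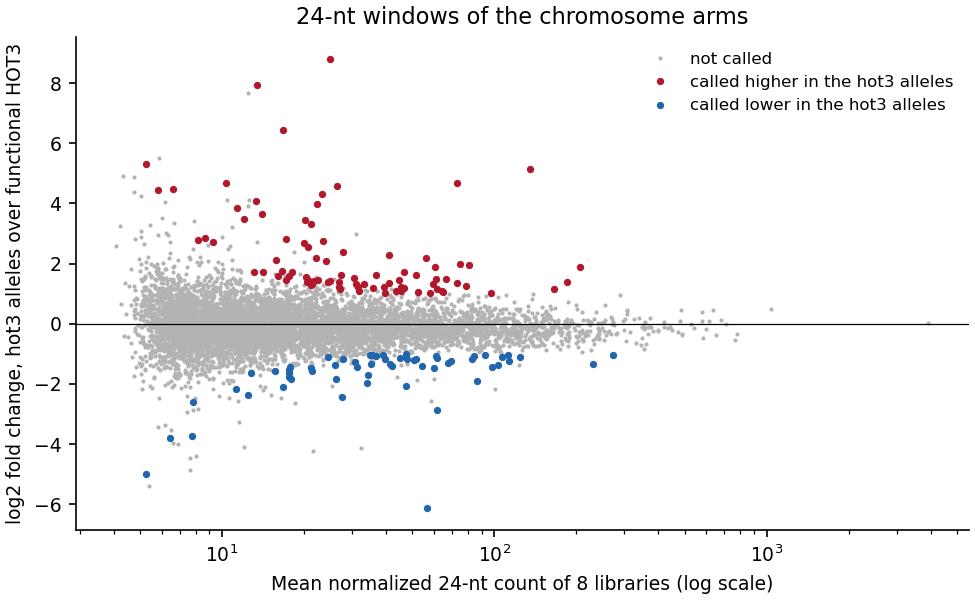
Fold change of the 24-nt level, *hot3* alleles over functional HOT3, in log2 units against the mean normalized 24-nt count (log scale) for the 6962 member windows tested. The 85 windows called higher are red, the 60 called lower blue, and most windows lie close to 0.

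Named windows at or near 0 in a group met the limit of 80 counts through the libraries in which they were high, so their tests describe windows that this choice favoured. The largest rise by fitted fold change was at chr1:2800600-2800699, within 1 kb upstream of AT1G08750, a peptidase C13 family gene. It had 17.7 and 52.2 normalized 24-nt counts in *hot3-2* and 65.1 and 63.9 in *hot3-3*, against 0 in all 4 libraries of *HOT3-EYFP* and WT. With a floor of 3 counts over the group at 0, this was at least 72.1-fold higher (edgeR adjusted *p* = 4.2e-05). Of its 24-base words 25% were unique.

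The next window, chr2:7677900-7677999, is intergenic and of unique sequence. It had 32.2 and 31.8 in *hot3-2* and 24.5 and 19.1 in *hot3-3*, against 0 in the other 4 libraries, at least 39.5-fold higher (edgeR adjusted *p* = 2.5e-05). Both windows were therefore seen in the alleles and not detected with the transgene or in WT.

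Upstream of AT1G31240, annotated as a bromodomain transcription factor, chr1:11165500-11165599 had 7.24 and 9.84 in *hot3-2* and 50.7 and 65.6 in *hot3-3*, against 0 and 1.14 in *HOT3-EYFP* and 0 in both WT libraries. That is 1 count in the second group, a ratio of 142 with a 95% counting interval of 25.2 to 5652 (edgeR adjusted *p* = 5.2e-05). In AT2G24340, annotated as a DNA-binding transcription factor, chr2:10355900-10355999 had 9.30 to 11.4 in the alleles and 1 count in all of the other libraries, a ratio of 45.1 with an interval of 7.73 to 1814. It held 87 counts of all lengths, close to the limit of 80, and its call was lost when any 1 library other than the second of *HOT3-EYFP* was left out (edgeR adjusted *p* of 0.0142 to 0.0382).

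Of the 8 named rises, the one with the most 24-nt counts was chr5:16716200-16716299, in the noncoding RNA AT5G06195. It had 278 and 290 in *hot3-2* and 223 and 263 in *hot3-3*, against 8.68 and 11.4 in *HOT3-EYFP* and 5.01 and 5.54 in WT. The log2 fold change was 5.16 ± 0.15 (SE, edgeR adjusted *p* = 1.1e-09), and no library of the alleles came near the others. Of its counts, 64.5% were 24 nt and 14.3% were 21 nt.

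For the alleles against functional HOT3, the calls at AT1G08750 and at chr2:7677900-7677999 were kept in all 8 fits that left out 1 library. At AT1G08750 other calls were less stable. Those against WT were lost in 2 of 4 such fits for *hot3-2* and 1 of 4 for *hot3-3*. That of *HOT3-EYFP* against *hot3-2* was lost in 2 of 4. At 3 of the largest rises *HOT3-EYFP* was between the alleles and WT or close to the alleles. Near AT4G36930 (*SPATULA*, a transcription factor of carpel development), chr4:17413000-17413099 had 13.3 to 21.7 in the alleles, 4.82 and 4.56 in *HOT3-EYFP* and 0 in WT, and a called neighbour at chr4:17413200-17413299 had 29.0 to 52.4 in the alleles, 6.75 and 17.1 in *HOT3-EYFP*, and 0.836 and 0 in WT. In AT3G09960, a calcineurin-like phosphoesterase gene, chr3:3063400-3063499 had 33.2 to 51.6 in the alleles, 29.9 and 21.7 in *HOT3-EYFP* and 0 in both WT libraries. Upstream of AT2G22750, a bHLH gene, chr2:9670900-9670999 had 7.61 to 14.9 in the alleles, 2.89 and 2.28 in *HOT3-EYFP* and 0 in WT. The last of these calls was lost without any 1 library but the first of *hot3-3* (edgeR adjusted *p* of 0.0114 to 0.0303).

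The largest fall by fitted fold change, chr4:13657000-13657099 between genes, had 0 in *hot3-2* and 0.846 and 0.830 in *hot3-3*, against 6.75 and 12.5 in *HOT3-EYFP* and 10.9 and 10.3 in WT. With 2 counts in the alleles, the ratio was 0.0402 with a 95% counting interval of 0.00472 to 0.154 (edgeR adjusted *p* = 0.0073). Leaving out any 1 library ended this call, with adjusted *p* of 0.0157 to 0.0383. The intergenic window chr5:23129400-23129499 had 0 to 2.54 in the alleles against 8.71 to 24.1 (log2 fold change -3.72 ± 0.61, edgeR adjusted *p* = 0.0022). Its call was lost without the second library of *hot3-2*, the second of *hot3-3*, the first of *HOT3-EYFP* or the first of WT (adjusted *p* up to 0.0339), and 26% of its 24-base words were unique.

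Upstream of the noncoding RNA AT4G03875, chr4:630900-630999 had 14.5 and 12.9 in *hot3-2* and 7.61 and 19.9 in *hot3-3*, against 48.2 and 57.0 in *HOT3-EYFP* and 55.99 and 57.0 in WT. The log2 fold change was -1.98 ± 0.26 (SE, edgeR adjusted *p* = 0.00037), and the adjacent window and chr4:631300-631399 were also called lower, with log2 fold changes of -1.71 and -1.54. In this window 51.1% of the counts were 24 nt in the alleles and 70.5% in plants with functional HOT3. The other 5 falls were at *RPS28* (AT5G64140, a ribosomal protein gene), AT1G25097, AT5G15420 and the pseudogenes AT1G24938 and AT2G36402, with log2 fold changes of -2.15 to -3.80. Apart from AT1G25097, these calls were lost in 6 to 8 of the 8 fits that left out 1 library, with adjusted *p* of up to 0.0517. At AT1G25097 the *HOT3-EYFP* libraries were far apart, at 51.1 and 13.7, against 6.77 to 10.8 in the alleles and 58.5 and 64.9 in WT. *HOT3-EYFP* against *hot3-2* was not called there (edgeR adjusted *p* = 0.054). None of the 24-base words of the windows at AT1G24938 and AT1G25097 was unique.

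A pair of loci with several called windows were chosen after their values were seen. In *UNE15*, a late embryogenesis abundant protein gene, 4 windows between chr4:7882400 and 7883799 were called higher and together had 583 and 588 normalized 24-nt counts in *hot3-2* and 414 and 420 in *hot3-3*, against 100.3 and 75.2 in *HOT3-EYFP* and 181 and 210 in WT. At AT1G66540, a cytochrome P450 gene, 2 adjacent windows had 241 and 232 in *hot3-2* and 204 and 206 in *hot3-3*, against 58.8 and 57.0 in *HOT3-EYFP* and 42.6 and 53.1 in WT. The transgenic line was below WT at the first locus and slightly above it at the second.

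**Figure D5:**
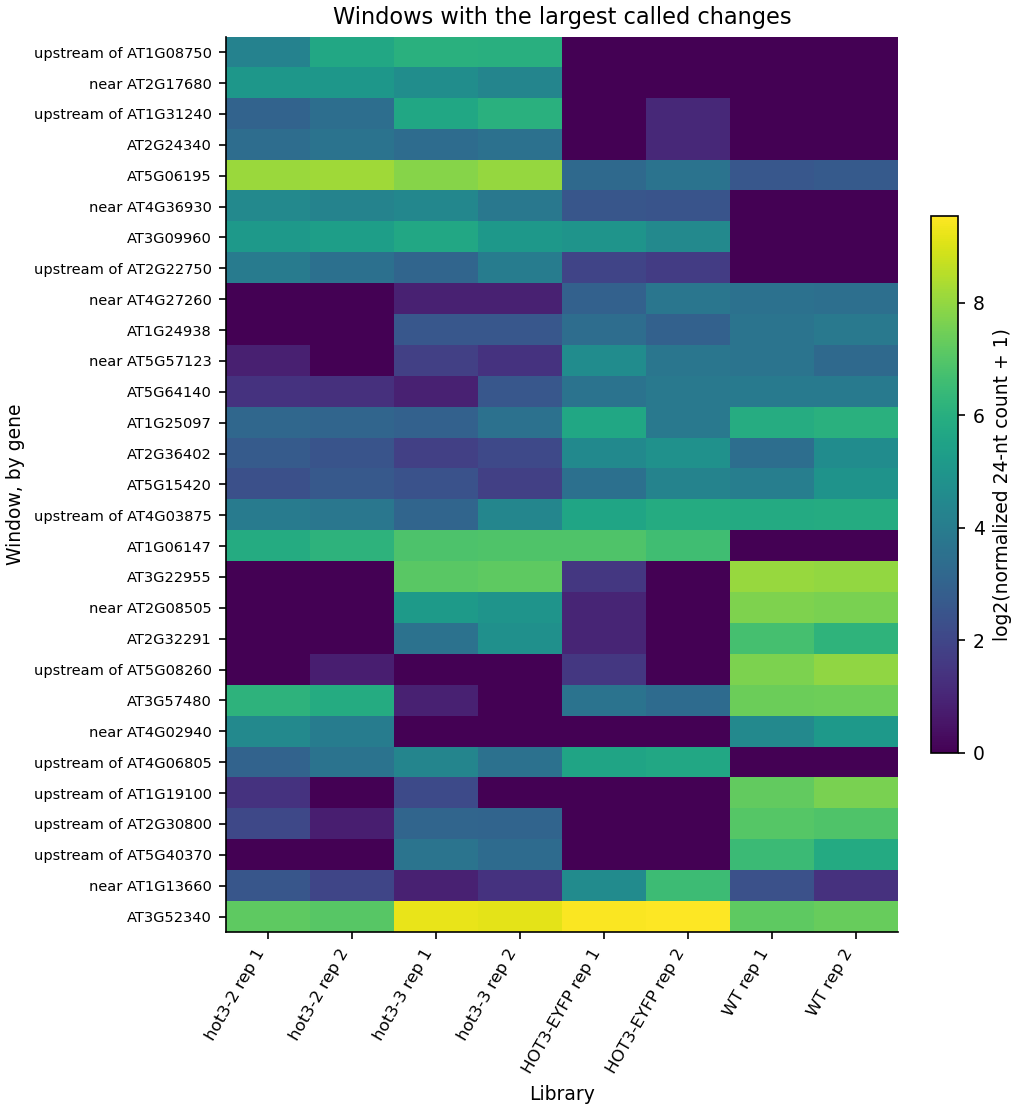
Normalized 24-nt counts, as log2 of the count plus 1, of the windows with the largest called changes (rows, named by gene) in each library (columns). The upper 8 rows are brighter in the 4 *hot3* libraries than in the others, the next 8 are darker, and rows such as AT3G22955 are at 0 in *hot3-2*, at most 1.93 normalized counts in *HOT3-EYFP* and bright in WT.

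Each line was also compared with WT, all sharing the same 2 WT libraries. Against WT, *hot3-2* had 52 members higher and 47 lower (background 0.741% and 0.545% of all windows tested), *hot3-3* had 49 and 35 (0.763% and 0.338%), and *HOT3-EYFP* had 23 and 29 (0.293% and 0.188%). As shares of the members tested these were 0.747% and 0.675%, 0.704% and 0.503%, and 0.330% and 0.417%. *HOT3-EYFP* against *hot3-2* gave 32 higher and 34 lower, 0.460% and 0.488% of members, with a background of 1.14% and 0.523%. With nuclear counts outside rDNA as library size the splits were 40 and 119 for *hot3-2*, 38 and 153 for *hot3-3*, 20 and 30 for *HOT3-EYFP* against WT, and 55 and 29 for *HOT3-EYFP* against *hot3-2*. Over all 26598 windows tested they were 149 and 363, 156 and 364, 58 and 52, and 393 and 112. With all counts the members split 52 and 46, 42 and 90, 15 and 62, and 3 and 138. All windows tested then split 204 and 136, 171 and 215, 36 and 123, and 130 and 454.

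At some of the named windows *hot3-2* and *HOT3-EYFP*, which share an insertion, were both at or near 0. The pseudogene window chr3:8138700-8138799 in AT3G22955 had 0 in both *hot3-2* libraries, 137 and 144 in *hot3-3*, 1.93 and 0 in *HOT3-EYFP*, and 267 and 256 in WT. It was at least 223-fold lower in *hot3-2* than in WT (edgeR adjusted *p* = 2.5e-07). The *hot3-3* libraries were below WT and far above *hot3-2* and *HOT3-EYFP*.

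On chromosome 2, chr2:13702500-13702599 between genes had 0 in *hot3-2*, 35.5 and 29.9 in *hot3-3*, 0.965 and 0 in *HOT3-EYFP*, and 207 and 194 in WT, at least 171-fold lower in *hot3-2* than in WT. The pseudogene window chr2:13717300-13717399 in AT2G32291 followed the same order, with 0 in *hot3-2*, 10.99 and 26.6 in *hot3-3*, 0.965 and 0 in *HOT3-EYFP*, and 105 and 72.9 in WT, at least 75.7-fold lower. Upstream of *GRXC2*, a glutaredoxin gene, chr5:16149500-16149599 had 0 in *hot3-2*, 11.8 and 9.13 in *hot3-3*, 0 in *HOT3-EYFP*, and 90.3 and 55.4 in WT.

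Other windows were high in WT and near 0 in the lines with an insertion. Upstream of *scpl35*, a serine carboxypeptidase-like gene, chr5:2656100-2656199 had 0 to 1.93 in all libraries of the other 3 genotypes, against 201 and 249 in WT, at least 180-fold lower in *hot3-3* than in WT (edgeR adjusted *p* = 2.5e-06). Upstream of *DMS11*, which encodes an ATPase of the MORC family required for gene silencing, chr1:6594000-6594099 had 0 in *HOT3-EYFP* and 0 to 3.38 in the alleles, against 150 and 196 in WT, and upstream of the helicase gene *HVT1*, chr2:13127200-13127299 had 0 in *HOT3-EYFP* and 0.757 to 7.61 in the alleles, against 130 and 119 in WT.

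The reverse was seen at chr1:9938600-9938699, in the noncoding RNA AT1G06147, which had 57.9 and 71.9 in *hot3-2*, 116 and 119 in *hot3-3*, 120 and 98.0 in *HOT3-EYFP* and 0 in both WT libraries. These were at least 53.4-fold, 96.1-fold and 89.9-fold higher than WT. At chr4:10180700-10180799, upstream of AT4G06805, *HOT3-EYFP* had 47.3 and 51.3, the alleles 7.24 to 19.5, and WT 0.

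In AT3G57480, a zinc finger gene, chr3:21277300-21277399 had 70.8 and 57.5 in *hot3-2*, 0.846 and 0 in *hot3-3*, 11.6 and 9.12 in *HOT3-EYFP*, and 170 and 172 in WT. The fall in *hot3-3* against WT was a ratio of 0.00245. The intergenic window chr4:1303800-1303899 had 21.7 and 15.1 in *hot3-2*, 0 in *hot3-3* and *HOT3-EYFP*, and 21.7 and 34.1 in WT, and its calls were lost in 3 of 4 fits that left out 1 library in each of its comparisons (edgeR adjusted *p* of 0.0135 to 0.0292). For *HOT3-EYFP* against *hot3-2* the naming rule kept a called rise at chr5:23129400-23129499, which was lost in all 4 fits that left out 1 library. Another, at chr1:4685800-4685899, had 23.2 and 92.3 against 4.83 and 3.03 and was lost without either *hot3-2* library. The last, at chr3:19409400-19409499, had 710 and 746 against 145 and 132. The last of these lies in *SPP2*, a sucrose-phosphate phosphatase gene, and over a tRNA-Cys gene, AT3G52345, and *hot3-3* had 606 and 563 there and WT 142 and 162.

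Counted over all members, 10 windows had no 24-nt count in WT and 5 counts or more in each library of the other 3 genotypes. A further 6 had none in *hot3-2* and *HOT3-EYFP* with 5 or more in each library of *hot3-3* and WT, 2 had none in *hot3-3* and *HOT3-EYFP*, 2 had none in *HOT3-EYFP* and WT, 2 had counts in WT alone, and 1 each lacked counts in *hot3-2* alone, in *hot3-3* alone, or in all but *hot3-3*. None lacked counts in *hot3-2* and *hot3-3* while present in the rest. Members needed 80 counts or more, at least 50% of them 24 nt long. A window lacking 24-nt counts in a genotype met these limits through the other libraries, so the choice of members affects these numbers. The same patterns were not counted over all windows, so these numbers have no background to be compared with.

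Of 22 RdDM pathway genes, 19 lie on the arms and 4 had members in the gene or within 1 kb upstream, with 5 windows in all. In the alleles against functional HOT3, 1 was called higher and 0 lower (background 1.24% and 0.996% of all windows tested). It was chr4:7827900-7827999 upstream of *SUVH9*, which encodes a protein that recruits RNA polymerase V to methylated DNA. At this window the levels were 210 and 199 in *hot3-2* and 228 and 233 in *hot3-3*, against 50.2 and 55.8 in *HOT3-EYFP* and 179 and 173 in WT. The call of the alleles against functional HOT3 (log2 fold change 1.17, edgeR adjusted *p* = 7.1e-06) thus came with allele levels near WT and low levels in *HOT3-EYFP*, and *HOT3-EYFP* was lower than WT (-1.73, edgeR adjusted *p* = 2.1e-05) and than *hot3-2* (-1.95, edgeR adjusted *p* = 2.8e-06). Against WT, 0 of these 5 windows were called in *hot3-2* or *hot3-3* by edgeR or DESeq2, with 0 and 1 at an unadjusted *p* under 0.05. The edgeR background of calls was 0.741% higher and 0.545% lower for *hot3-2*, and 0.763% and 0.338% for *hot3-3*. In each of these comparisons 1348 of the 6962 members tested met the unadjusted limit. The list did not hold *DMS11*, whose upstream window, described above, was called lower in both alleles than in WT (edgeR adjusted *p* = 2.0e-05 in *hot3-2* and 4.5e-05 in *hot3-3*) and lower in *HOT3-EYFP* (3.2e-05). Windows upstream of *NRPD1* and *NRPE1*, which encode the largest subunits of polymerases IV and V, and of *NRPD2*, which encodes a subunit they share, had edgeR adjusted *p* of 0.28 to 0.74 in the same comparison.

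Of 8 genes known as targets of siRNA-directed silencing, 3 had members, 7 windows in all, and 0 were called by edgeR or DESeq2 in any of the 5 comparisons, with 1 at an unadjusted edgeR *p* under 0.05 in each. The edgeR background of calls was 0.188% to 1.24% of all windows tested, by comparison and direction. The unadjusted limit was met by 738 to 1806 of the 6962 members tested. At *FWA*, a homeobox gene silenced by a methylated repeat, the window chr4:13038200-13038299 had 44.3 and 49.2 in *hot3-2*, 27.9 and 42.3 in *hot3-3*, 51.1 and 39.9 in *HOT3-EYFP*, and 36.8 and 43.6 in WT. At *SDC*, an F-box gene silenced by repeats in its promoter, chr2:7681900-7681999 had 104 and 145 in *hot3-2*, 123 and 121 in *hot3-3*, 119 and 98.0 in *HOT3-EYFP*, and 107 and 124 in WT. At both windows the allele libraries overlapped those of plants with functional HOT3. In *SNC1*, a disease resistance gene, chr4:9503100-9503199 had 112 and 95.4 in *hot3-2* and 84.6 and 111 in *hot3-3*, against 44.4 and 61.5 in *HOT3-EYFP* and 53.5 and 53.1 in WT, a log2 fold change of 0.93 (edgeR adjusted *p* = 0.0027) that stayed under the 2-fold limit of a call.

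Among 194 annotated disease resistance genes, 32 had members. Of their 52 windows tested, 0 were called by edgeR or DESeq2 in any comparison (edgeR background 0.188% to 1.24% of all windows tested, by comparison and direction). At an unadjusted edgeR *p* under 0.05 there were 3 to 7 of the 52, against 738 to 1806 of all 6962 members tested. Among 326 *MIR* genes, 41 had members, and 4 of 62 windows tested were called higher and 0 lower in the alleles against functional HOT3 (background 1.24% and 0.996% of all windows tested). For *HOT3-EYFP* against *hot3-2* 0 were called higher and 3 lower (background 1.14% and 0.523%), and each comparison with WT gave 1 call, higher in *hot3-2* and *hot3-3* and lower in *HOT3-EYFP*. Among 625 tRNA genes, 34 had members in the gene or within 1 kb upstream, and of 52 windows tested 5 were called higher in *hot3-3* than in WT (background 0.763%), 5 in *HOT3-EYFP* than in WT (0.293%) and 4 in *HOT3-EYFP* than in *hot3-2* (1.14%), with 0 called lower and 0 called in *hot3-2* against WT or in the alleles against functional HOT3. DESeq2 also called 0 in those 2 comparisons, for which the edgeR background was 0.741% higher and 0.545% lower, and 1.24% and 0.996%. In them 13 and 17 of the 52 windows had an unadjusted edgeR *p* under 0.05, against 1348 and 1806 of all 6962 members tested. The median log2 fold change of the alleles over functional HOT3 was 0.13 for windows of disease resistance genes, -0.14 for *MIR* genes and 0.03 for tRNA genes, against -0.08 for all members tested.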

How the data were processed

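The authors sequenced sRNA libraries, cut from gels at 18 to 40 nt, from 18-day-old seedlings (grown at 23 °C per the labels, 22 °C per the study's methods) and deposited raw counts of reads per 100-bp window and length from 18 to 26 nt, without strand or normalization. Their processing notes name cutadapt 4.2, Bowtie, featureCounts 2.0.3 and DESeq2 1.34.0. The study's methods name ShortStack settings for sRNA reads aligned to 45S rDNA and TAIR10 for RNA-seq. For these genome windows, the build and the handling of reads that match several places are not given in the sources used here. Window numbers match the TAIR10.1 chromosome lengths, and a window holds reads by their leftmost base, checked at a miRNA on chromosome 3 (leftmost base 16072500), with 214 counts of 20 to 22 nt in that window and 10 in the window before.

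Depth was 6793502 to 8210328 counts per library. Levels and shares were compared by exact permutation, and windows by edgeR's quasi-likelihood test (edgeR 4.0.16, R 4.3.3) with genotype as the factor, all 8 libraries in the fit and TMM within 24 nt. The fit was tested on simulated data. The SE of a log2 fold change was approximated as the absolute log2 fold change over the square root of the F statistic of its test. Counting intervals and floors cover counting error only. Tables were handled with pandas 2.3.3 and numpy 2.4.6 in Python 3.11.15, and figures drawn with matplotlib 3.10.9. Uniqueness was counted over 24-base words of both strands.

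Named windows were the 5 with the most 24-nt counts, the 8 largest called rises and 8 largest falls of the alleles against functional HOT3 with no overlap of libraries and the same sign in each allele, and the 3 largest of each direction in the other comparisons, at least 2 kb apart. Members and lists were chosen with earlier results of these data known. Alternatives were other library sizes, DESeq2 1.42.0 (size factors, Wald test), no filter on low counts, fits of fewer genotypes, replicate number as a block, other limits, and leaving out each library. Alternatives without *HOT3-EYFP*, without tRNA windows or with unique windows only were chosen after seeing the data.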

Additional observations from a re-analysis of the deposited data

Results flagged for a closer look

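The arms and the pericentromeres differed in how the 24-nt counts of the *hot3* alleles compared with those of plants with functional HOT3. The log2 ratio of arm to pericentromere counts was lower in the alleles by a difference of -0.15 (exact permutation test, *p* = 0.0286, lower in 4 of 4 allele libraries). Among windows with a 24-nt share of 70% or more it was -0.091 (exact permutation test, *p* = 0.0571). Pseudogene windows differed from the other annotation classes in the same comparison, with a log2 difference of -0.077 (exact permutation test, *p* = 0.0286, 0.114 after adjustment over 4 classes). In the 4 libraries of *HOT3-EYFP* and WT, the 24-nt share of pseudogene windows had 1 library apart from the others, where the gap to its neighbour was 0.834 of the range of the group (61.7% to 62.4%). Chance gives such a gap in about 1 of 20 groups, and 88 groups were examined. The causes of these differences were not tested.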

How the results depend on the processing

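The 24-nt share in the arm windows kept its direction and its side of the threshold under every alternative except the fit without *HOT3-EYFP*. Without both *HOT3-EYFP* libraries, where 4 libraries against 2 cannot go below an exact permutation *p* of 0.0667, the share differed by -3.86 percentage points, the arm to pericentromere log2 ratio by -0.15, the pseudogene log2 ratio by -0.078, and the shares of 18 to 23 nt by 0.424, 0.428, 0.471, 0.728, 1.05 and 0.599 percentage points. With a 24-nt share of 70% or more the arm to pericentromere log2 ratio differed by -0.091 (exact permutation *p* = 0.0571). With nuclear counts outside rDNA as denominator the log2 difference was -0.33 for the summed level and -0.40, -0.33, -0.33 and -0.31 for pseudogene, gene, upstream and intergenic windows, all then past the threshold. The causes of these changes were not tested. For *hot3-2* against WT, *hot3-3* against WT, *HOT3-EYFP* against WT, *HOT3-EYFP* against *hot3-2* and the alleles against functional HOT3, adjusted *p* under 0.05 with 1.5-fold gave 301, 286, 98, 222 and 576 calls among 6962 members tested. Over all 26598 windows tested it gave 991, 877, 397, 1000 and 2111. Without a filter on low counts, 182, 197, 110, 143 and 247 of 7561 members were called, and 670, 668, 358, 785 and 1032 of all 319467 windows. Of 754 members tested with a 24-nt share of 70% or more, 25, 20, 13, 12 and 28 were called, against 342, 293, 128, 443 and 594 of all 26598 windows. With all counts as library size *hot3-3* had 132 calls (386 over all windows tested) and *HOT3-EYFP* against *hot3-2* 141 (584). With nuclear counts *hot3-2* had 159 (512 over all windows tested), *hot3-3* 191 (520) and the alleles 227 (902). A fit of only *HOT3-EYFP* and *hot3-2* gave 36 calls among 5793 members tested, and 340 among all 20035 windows tested. Leaving out 1 library gave 41 to 50, 31 to 44, 26 to 36, 34 to 36 and 79 to 100 calls, whichever library was left out, against 99, 84, 52, 66 and 145 with all libraries, the lone library then being assumed to vary like the other groups. Those fits with 1 library left out tested 6742 to 6877 members and 24936 to 26151 windows in all. In each, calls over all windows tested were also fewer than with all libraries, so the fall was not particular to members. With a replicate block the calls were 88, 76, 48, 63 and 120, all within 1.5 times, and 320, 275, 120, 432 and 526 over all windows tested. The replicate numbers did not pair the libraries (correlations of -0.03 to 0.06, 1 for each of the 6 pairs of genotypes, since deviations of 2 libraries mirror each other). Of 40 tests of named windows, 25 kept their call in every fit that left out 1 library and 31 in every other alternative, and none reversed. For the alleles against functional HOT3 these were 8 and 12 of 16, and calls were lost at AT2G24340, AT2G22750, AT1G24938, AT2G36402, AT5G15420, *RPS28*, chr4:13657000-13657099 and chr5:23129400-23129499. Among the calls kept when 1 library was left out, those upstream of *scpl35*, *DMS11* and *HVT1* had only 2 such fits each. Without either WT library these windows missed the filter on low counts, so their calls could not be tested there. Depth limits the windows with few counts, and 599 members were too low to be tested.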
